A study of Mus musculus with 6 samples.

Results

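The 9 genes described here encode unconventional myosins, the actin motors outside the filament-forming class II. They are *Myo18a* and *Myo18b* (class XVIII), *Myo1c* and *Myo1e* (class I), *Myo9a* and *Myo9b* (class IX), *Myo5a*, *Myo6* and *Myo10*. They were taken by symbol from a count table of 46078 genes, and all 9 were among the 14828 genes that passed the filter on low counts. The set was chosen by family membership and by the measured rise of *Myo18b* counts in *Hnrnpa2b1* KO over WT libraries, so its KO and WT values are given as a description. Where these genes are counted as past a threshold, the count follows in part from that choice and supports nothing. The cells were C2C12, an immortalized mouse myoblast line, in which *Hnrnpa2b1*, a gene for a nuclear RNA-binding protein, had been targeted with CRISPR-Cas9 and a single guide RNA, while WT cells received a scrambled guide. Methods in the study describe puromycin selection and 3 independent clones of each genotype, but do not state which clone gave which library. RNA was taken after 48 hr of serum withdrawal with ITS supplement, from 3 KO and 3 WT libraries (KO1 to KO3 and WT1 to WT3). The comparison asks how loss of *Hnrnpa2b1* alters the transcriptome of differentiating muscle cells.

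A myosin heavy chain has a motor head that binds actin and ATP, a neck that holds calmodulin or related light chains, and a tail that sets its cargo or partners. Class II myosins build the thick filaments of muscle and of non-muscle stress fibres, whereas unconventional myosins link actin to membranes, vesicles and signalling proteins. Class XVIII is the closest relative of class II. *Myo18b* is known chiefly from striated muscle, where it is needed for sarcomere assembly, and *Myo18a* is widely expressed and ties the Golgi to actin.

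Library totals lay between 33605258 and 40558740 counts. *Hnrnpa2b1* itself was at 159, 195 and 249 CPM (counts relative to library size, scaled with edgeR's TMM factors) in KO and 225, 229 and 252 in WT, which overlap, so its RNA does not separate the labelled genotypes. The study assessed the knockout by protein. Of 12 skeletal muscle markers, all were detected, 1 was higher in KO and 3 were lower by edgeR's quasi-likelihood test, where 22.7% of all genes tested were called. The count of lower markers was 8 without KO1, 1 without WT3, 6 without the filter on low counts and 5 in TPM, and the higher one was not called without WT1 or WT3. The median log2 fold change of the 12 was −0.61 against 0.03 over all genes tested. The lower ones were *Mef2c* (−4.40), *Actn2* (−2.94) and *Myf5* (−1.50), and the higher one was *Myod1* (0.99). Summed CPM of the 12 was highest in KO1 (24920), lowest in KO2 (11147) and 17050 in KO3, against 18192 to 22797 in WT. Abundant genes lead that sum, and *Ttn* alone was 9878 in KO3. Summed markers of other cell types were low, at 5.66 to 6.97 CPM in KO and 3.05 to 3.76 in WT for 4 immune genes, 0.196 to 0.733 and 1.19 to 2.05 for 4 endothelial genes, 0.802 to 5.88 and 0.260 to 0.620 for 4 epithelial genes, and 6.57 to 23.7 and 2.80 to 7.13 for 4 neuronal genes. *Pecam1*, *Epcam*, *Cldn4*, *Rbfox3* and *Snap25* had at most 3 counts in every library. The part of any of these differences in the myosin values was not tested.

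*Myo18b* was low in WT cells and high in KO cells. It stood at 2.72 CPM in WT1, 4.24 in WT2 and 3.02 in WT3, from 94, 139 and 112 counts. KO1 had 115 CPM, KO2 235 and KO3 241, from 4098, 10269 and 9875 counts. The groups were far apart, and the lowest KO library was 27.1-fold above the highest WT library. KO1 was the low one of the KO libraries, but it too was 5.11 log2 units above the WT mean, compared with 6.14 for KO2 and 6.18 for KO3. Means were 197 ± 71.3 in KO and 3.32 ± 0.804 in WT (SD, n = 3), a ratio of 59.3. The fitted log2 fold change was 5.89 (SE 0.36), the 27th highest of 14828 genes. It lay between 5.72 and 6.16 when any 1 library was left out. In bulk RNA, more cells that express a gene and more of its RNA per cell cannot be told apart.

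*Myo18a*, its class partner, was lower in all KO libraries. WT1, WT2 and WT3 had 493, 453 and 534 CPM, and KO1, KO2 and KO3 had 372, 236 and 249. The groups did not overlap, and KO1 was again the KO library nearest to WT. Means were 286 ± 75.3 in KO and 493 ± 40.2 in WT (SD, n = 3), so that WT held 1.73 times the KO level. The log2 fold change was −0.79 (SE 0.20), and −1.03 without KO1. The 2 genes of the class thus differed in opposite directions.

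**Figure D1:**
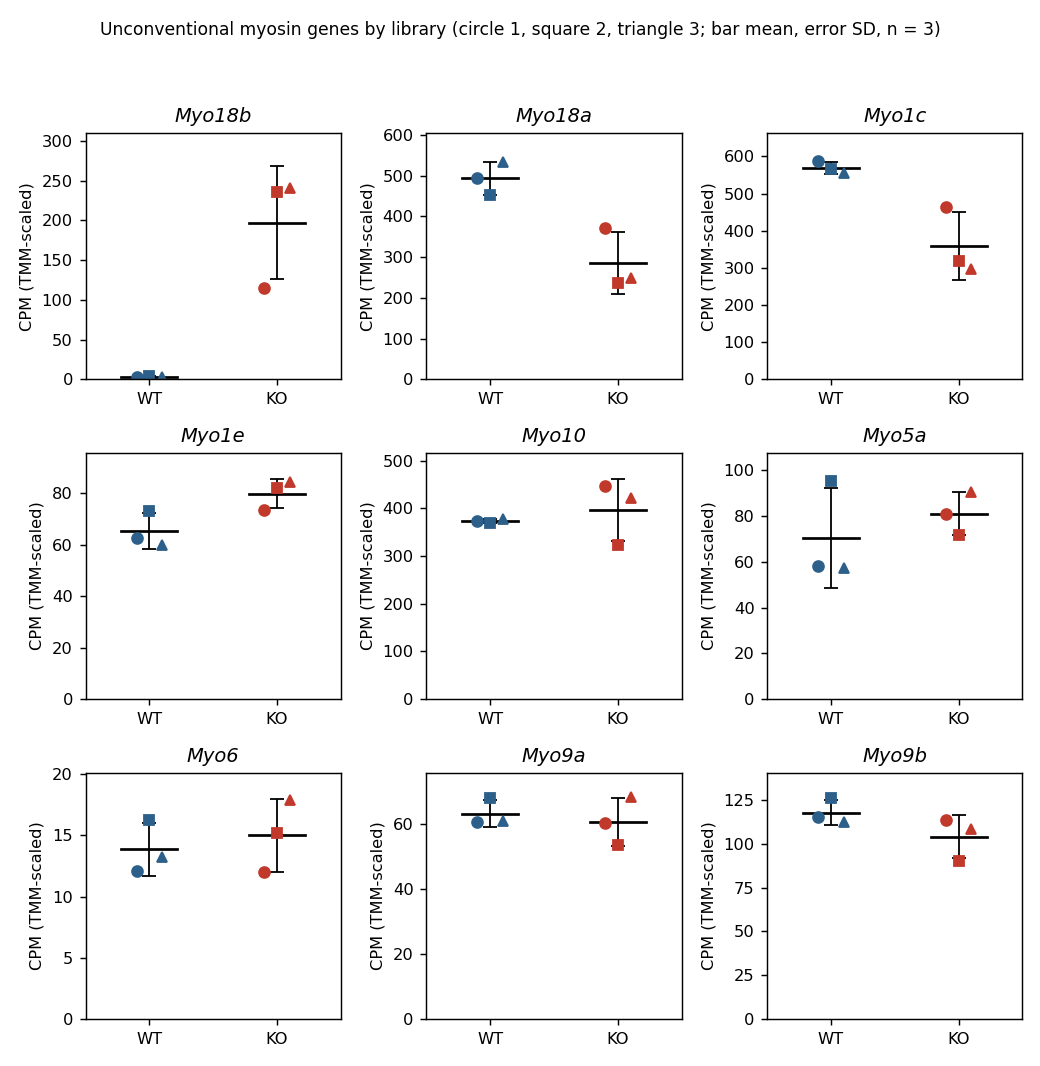
CPM of each gene in the 3 WT (blue) and 3 KO (red) libraries, with the mean as a bar and the SD as error; circles, squares and triangles are libraries 1, 2 and 3, and each panel has its own axis from 0. *Myo18b* runs from 2.72 to 4.24 in WT and from 115 to 241 in KO, *Myo18a* and *Myo1c* are lower in every KO library, and 5 of the other genes overlap.

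Among class I genes, *Myo1c* was lower in KO. It encodes a short-tailed motor that tethers vesicles, including those with glucose transporters, to the plasma membrane. WT1, WT2 and WT3 had 587, 566 and 555 CPM and KO1, KO2 and KO3 had 464, 318 and 297, so the groups were separate and KO1 was once more nearest to WT. Means were 360 ± 91.3 in KO and 569 ± 16.1 in WT (SD, n = 3), with WT 1.58 times KO. The log2 fold change was −0.66 (SE 0.20), and −0.90 without KO1. *Myo1e*, a long-tailed class I motor of endocytic sites and cell adhesions, was at 73.4, 82.1 and 84.2 CPM in KO and 62.6, 73.0 and 60.0 in WT. The lowest KO library and the highest WT library nearly touched, and the log2 fold change was 0.29 (SE 0.13).

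The class IX genes encode motors with a GTPase-activating domain in the tail. *Myo9b* was at 114, 90.0 and 109 CPM in KO and 115, 126 and 112 in WT, with a log2 fold change of −0.18 (SE 0.13). *Myo9a* was at 60.2, 53.5 and 68.1 in KO and 60.6, 67.7 and 60.9 in WT, with a log2 fold change of −0.06 (SE 0.13). Both overlapped between genotypes, with KO2 as the lowest library of each gene.

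*Myo10*, the motor of filopodial tips, was nearly constant over WT, at 373, 369 and 378 CPM. KO libraries lay on both sides of that, at 447, 323 and 421, and the log2 fold change was 0.09 (SE 0.16). *Myo5a*, which carries vesicles and melanosomes along actin, was at 80.9, 71.9 and 90.5 in KO and 58.0, 95.5 and 57.3 in WT. WT2 held the highest *Myo5a* level of all libraries, and the log2 fold change was 0.21 (SE 0.22). *Myo6*, the motor that walks towards the minus end of actin, was at 12.0, 15.2 and 17.9 in KO and 12.1, 16.3 and 13.3 in WT, which overlap. Its log2 fold change was 0.11 (SE 0.20).

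In the fit over all genes, *Myo18b*, whose rise was part of the choice, lay past an adjusted p of 0.05 as higher, and *Myo18a* and *Myo1c* as lower. Of all genes tested 22.7% did so in either direction (12.1% higher in KO and 10.6% lower), and nothing is read from the 3 of 9 beside that share. CPM of KO and WT did not overlap for 4 of the 9, against 44.3% of all genes tested. The median log2 fold change was 0.09 over the 9 genes. *Myo18a* and *Myo1c* passed close to the threshold, and both fell short of it without KO2, KO3, WT1, WT2 or WT3. *Myo1c* also fell short with library totals in place of TMM factors, where its log2 fold change was −0.56. Spread was uneven over the genes: within WT the coefficient of variation was 1.16% for *Myo10*, 2.82% for *Myo1c* and 31.1% for *Myo5a*, and within KO it reached 36.2% for *Myo18b*, 26.3% for *Myo18a* and 25.4% for *Myo1c*.

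**Figure D2:**
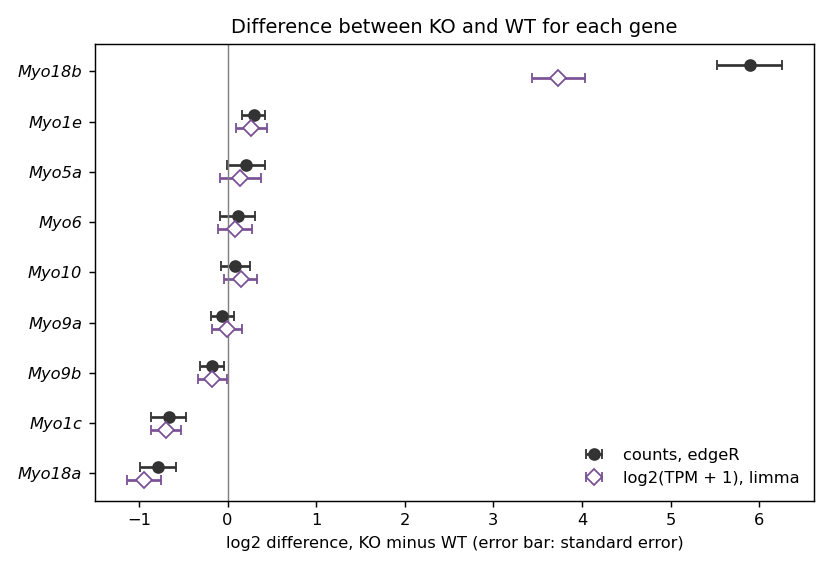
Log2 difference of KO from WT with its standard error, for counts fitted in edgeR (filled) and for log2(TPM + 1) in limma (open). *Myo18b* stands alone at 5.89 and 3.73, *Myo18a* and *Myo1c* lie at −0.79 and −0.66 in counts, and the other 6 genes lie between −0.18 and 0.29.

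TPM, transcript levels corrected for length and depth, gave the same directions for the 3 called genes, with log2(TPM + 1) differences of 3.73 (SE 0.30) for *Myo18b*, −0.94 (SE 0.19) for *Myo18a* and −0.69 (SE 0.16) for *Myo1c*. This scale understates the difference of *Myo18b*, whose WT values of 0.233, 0.377 and 0.268 TPM are below the added 1, against 9.01, 19.4 and 23.7 TPM in KO. TPM come from the same libraries and are no independent check. The same 3 genes lay past the threshold in TPM, as did 20.5% of 11691 genes, and nothing is read from that count either. The other 6 differences lay between −0.17 (*Myo9b*) and 0.27 (*Myo1e*).

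Per length, the order of the genes was led in WT by *Myo1c* (median 89.9 TPM) and *Myo18a* (84.4), whose ranges overlapped. *Myo10* followed at 34.2. *Myo9b* (10.8) overlapped *Myo1e* (8.52), which overlapped *Myo5a* (5.50), while *Myo9a* (3.62) and *Myo6* (1.23) were separate from their neighbours, and *Myo18b* was last at 0.268. In KO the median of *Myo18b* was 19.4 TPM, the fourth in order. There *Myo1c* (51.1), *Myo10* (40.7) and *Myo18a* (40.4) overlapped in order, and *Myo18b* was separate from *Myo18a* above it but overlapped *Myo1e* (10.6) below it because of KO1. *Myo9b* (9.55) and *Myo5a* (7.07) came next, then *Myo9a* (3.15) and *Myo6* (1.38).

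**Figure D3:**
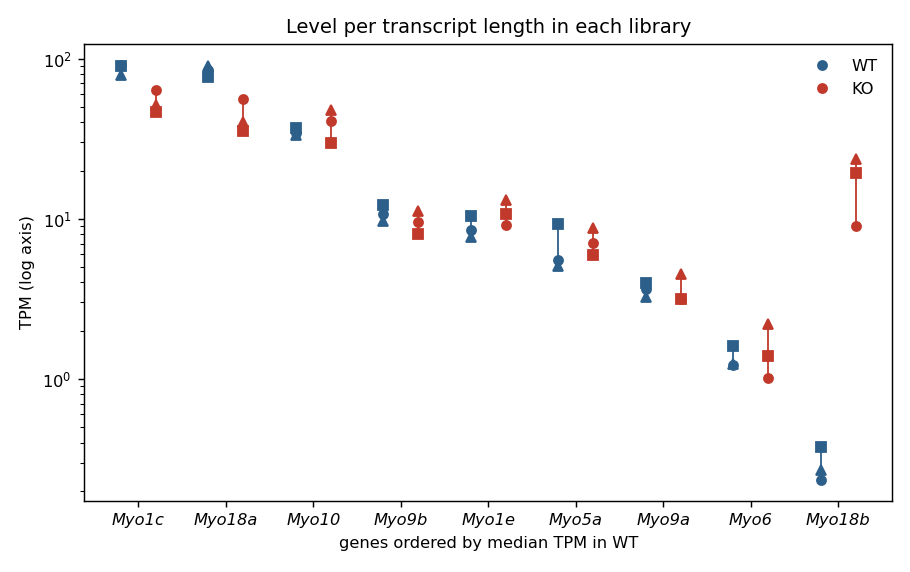
TPM of each gene in every library on a log axis, ordered by the WT median, with WT in blue, KO in red and lines spanning the 3 libraries. WT medians run from 89.9 TPM for *Myo1c* to 0.268 for *Myo18b*, while *Myo18b* in KO sits at 9.01 to 23.7. Its KO1 value is among the KO values of *Myo9b* and just below those of *Myo1e*, and the other 2 libraries are above both genes.

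Summed over 24 unconventional myosin genes, TPM was 238, 247 and 252 from the lowest to the highest WT library and 165, 205 and 212 in KO. The 9 genes made up 95.5% to 97.2% of that sum in KO and 96.0% to 97.0% in WT. *Myo18b* was 4.39% to 11.7% of the family in KO and 0.0943% to 0.150% in WT. Without *Myo18b* the sum was 146 to 196 in KO and 237 to 252 in WT. *Myo1c*, *Myo18a* and *Myo10* together held 65.6% to 78.2% in KO and 81.0% to 85.5% in WT. The TPM sum over the 24 genes was lower in every KO library than in any WT library, with or without *Myo18b*. That gap depends on the measure. In CPM the 9 genes summed to 1425 to 1739 in KO and 1764 to 1773 in WT. Their part of all counts overlapped, at 0.153% to 0.171% in KO and 0.168% to 0.173% in WT. The TPM share of *Myo1c*, *Myo18a* and *Myo10* was lower in KO too, but its total includes *Myo18b*, whose rise was part of the choice. Nothing is read from that share.

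Within class XVIII the ratio of the 2 genes differed between genotypes with no overlap, which follows in part from the choice of *Myo18b*. *Myo18b* was 13.8% to 36.9% of class XVIII TPM in KO and 0.276% to 0.486% in WT, and the ratio of *Myo18a* to *Myo18b* was 1.71 to 6.24 in KO and 205 to 362 in WT. Class XVIII TPM summed to 54.8 to 65.2 in KO and 77.5 to 90.7 in WT. In class I the ratio of *Myo1c* to *Myo1e* was 3.93 to 7.01 in KO and 8.61 to 10.8 in WT, which do not overlap. In class IX the ratio of *Myo9b* to *Myo9a* was 2.46 to 3.04 in KO and 2.98 to 3.06 in WT, which overlap.

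**Figure D4:**
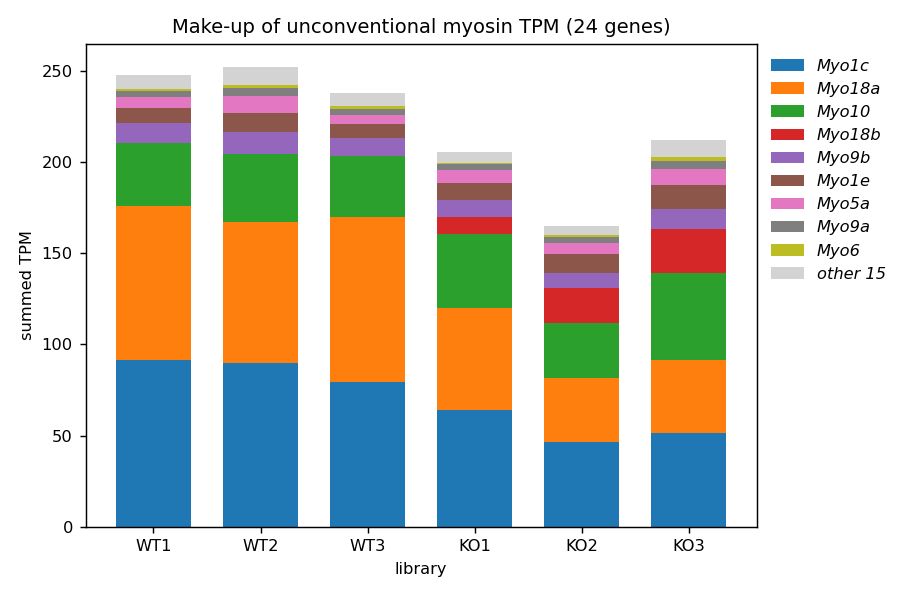
Summed TPM of 24 unconventional myosin genes in each library, stacked by gene with the 15 genes outside the set in grey. WT stacks reach 238 to 252 and are mostly *Myo1c* and *Myo18a*, and KO stacks reach 165 to 212 and show a band of *Myo18b* (red) of 9.01 to 23.7 TPM.

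The other 15 unconventional myosins were scarce. *Myo1f*, *Myo3a* and *Myo3b* had at most 3 counts in every library, 7 genes were tested, and their median log2 fold change was 0.32. *Myo7a*, a motor of sensory hair cells, was higher in KO by edgeR's test from few reads, 41, 20 and 34 counts in KO and 3, 11 and 4 in WT (2.19, SE 0.61, adjusted p = 0.0386), and fell short without KO1, KO3, WT1 or WT3. *Myo19*, a mitochondrial motor, *Myo1h* and *Myo1d* did not pass, with edgeR log2 fold changes of 0.69, 0.99 and 0.32 and adjusted p of 0.11, 0.155 and 0.29. The non-muscle class II heavy chains did not pass in edgeR: *Myh9* was at 0.24 (SE 0.29, adjusted p = 0.571), *Myh10* at −0.20 (SE 0.20, adjusted p = 0.501) and *Myh14* at 0.76 (SE 0.55, adjusted p = 0.347).

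The 10 light chains listed, which occupy myosin necks or tails, were all tested, with a median log2 fold change of 0.10. *Calm2*, a gene for calmodulin, the neck light chain of class I, V, VI and X motors, was at 320, 462 and 395 CPM in KO and 224, 250 and 207 in WT. Every KO library exceeded every WT library (log2 fold change 0.79, SE 0.17, edgeR adjusted p = 0.0182), but the call did not hold without WT1 or WT3. *Calm3*, a gene for the same protein, was at 0.13 (SE 0.22, edgeR adjusted p = 0.695). *Dynll1*, a small dimeric chain shared by dynein and the *Myo5a* tail, was at 114, 124 and 112 CPM in KO and 57.8, 68.7 and 71.7 in WT (0.82, SE 0.13, edgeR adjusted p = 0.00594). *Myl6* and *Myl12a*, light chains of class II, did not pass, at 0.24 and 0.04 (edgeR adjusted p = 0.274 and 0.89).

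Of 31 partners and cargo adaptors 29 were tested, *Mlph* and *Myrip* having at most 3 counts in every library. In edgeR 4 were higher and 4 lower, a share near the 22.7% of all genes tested, with a median log2 fold change of −0.08. Higher calls numbered 1 without WT1 or WT3 and 2 without WT2, and lower calls numbered 2 without KO2, KO3, WT1 or WT3. *Git1*, a scaffold found with the *Myo18a* tail and a PAK exchange factor, was at 51.9, 42.4 and 34.2 CPM in KO and 114, 90.1 and 90.4 in WT (−1.20, SE 0.18, edgeR adjusted p = 0.00545). *Cdc42bpb*, a Cdc42-binding kinase that acts with *Myo18a*, rose by 0.73 (SE 0.13, edgeR adjusted p = 0.0101), but not past the threshold without WT1 or WT3. *Dnm2*, the membrane-cutting GTPase dynamin 2, a partner of the *Myo1e* tail, was at 174, 121 and 113 CPM in KO and 384, 399 and 325 in WT (−1.44, SE 0.20, edgeR adjusted p = 0.00393). *Rhob*, a small GTPase listed with the class IX motors, was at 263, 290 and 256 in KO and 110, 136 and 118 in WT (1.15, SE 0.14, edgeR adjusted p = 0.00259). In counts, the calls of *Dynll1*, *Git1*, *Dnm2* and *Rhob* held without any 1 library and in every alternative run.

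Changes in the remaining partners were less stable. *Gipc1*, an adaptor of *Myo6*, was higher by 0.63 (SE 0.15, edgeR adjusted p = 0.0215) and fell short without any 1 of the WT libraries. *Spire2*, an actin nucleator that binds class V motors, was at 12.0, 6.02 and 2.81 CPM in KO and 1.62, 0.609 and 1.75 in WT (2.38, SE 0.59, edgeR adjusted p = 0.0266), with the same limit. *Enah*, an actin-elongating protein carried by *Myo10*, was lower by edgeR (−0.58, SE 0.15, adjusted p = 0.0301), and passed in the absence of KO1 but of no other library, and not with library totals. *Itgb1*, the integrin that binds the *Myo10* tail, and *Rab10* did not pass, at −0.21 and 0.07 (edgeR adjusted p = 0.544 and 0.739). *Rab27a*, the melanosome GTPase upstream of *Myo5a*, lies outside the rule for named genes and is given because it is the remaining call (−2.01, SE 0.54, edgeR adjusted p = 0.0342), at 0.839, 0.710 and 0.928 CPM in KO and 4.66, 1.04 and 4.29 in WT, with WT2 just above the KO libraries. It fell short without WT1 or WT3, and also without KO2 or KO3.

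Myosin heads need a UCS chaperone to fold. *Unc45b*, the striated muscle form, was at 110, 69.0 and 68.2 CPM in KO and 180, 122 and 170 in WT (log2 fold change −0.93, SE 0.23, edgeR adjusted p = 0.0275), so it was lower where *Myo18b* was higher, but not past the threshold without KO2, KO3, WT1 or WT3. *Unc45a*, the general form, was at 19.2, 27.3 and 24.0 in KO and 16.3, 17.2 and 17.2 in WT (0.48, SE 0.16, edgeR adjusted p = 0.0702).

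**Figure D5:**
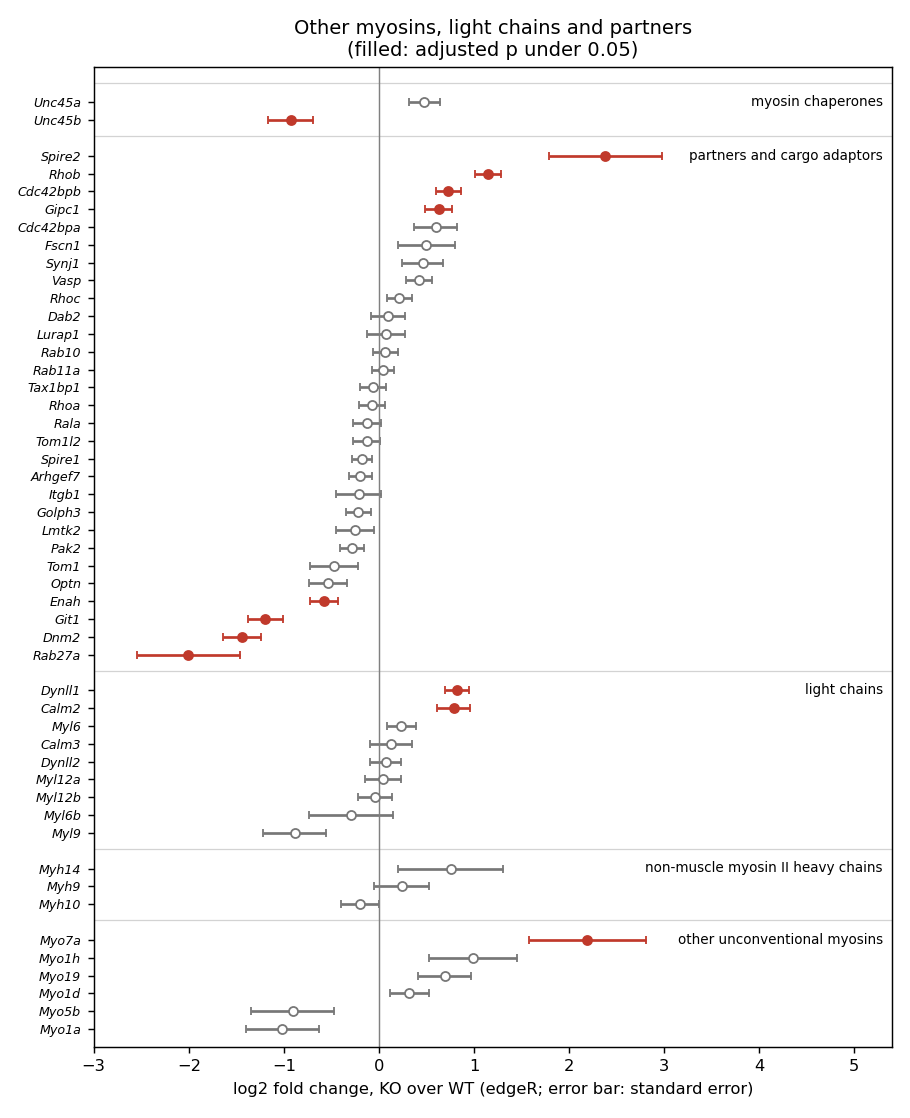
EdgeR log2 fold change of KO over WT with its standard error for 49 genes tested from 5 lists (2 further tested genes are not shown), filled red where the adjusted p was under 0.05. *Rhob* (1.15), *Git1* (−1.20) and *Dnm2* (−1.44) have short error bars away from 0, and the 3 class II heavy chains are open.

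On the deposited coordinates, whose gene starts match GENCODE vM21 on GRCm38 for all 9 genes, *Myo18b* spans chr5:112688876-112896362 on the minus strand, with 44 exons in its longest coding transcript of 8280 bases. *Myo18a* lies at chr11:77763246-77865980 and *Myo1c* at chr11:75650504-75673910, both on the plus strand of the same chromosome and with 42 and 32 exons. Values are given per gene, so they do not separate isoforms. The antisense gene 1700095B10Rik touches exons of *Myo18b*, with at most 13 counts in any library. *Haus8* touches exons of *Myo9b* on the opposite strand, with up to 666 counts, and use of strand in counting is not given in the sources used here, so reads of that pair may be shared.

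The 3 nearest tested genes on each side of *Myo18b* had a median log2 fold change of 0.45, from −0.83 to 2.99. The highest was *Wscd2*, called higher (edgeR adjusted p = 0.0476) at no more than 0.342 CPM in any library. Genes next to *Myo18a* and *Myo1c* each had a median of −0.35. Medians next to members that were not called were lower still for *Myo5a* (−1.06), *Myo6* (−0.49) and *Myo9b* (−0.48). They were higher for *Myo1e* (−0.14), *Myo10* (−0.06) and *Myo9a* (0.39). Next to *Myo18a*, *Sez6* (−6.86) and *Phf12* (−0.53) were called lower, and next to *Myo1c*, *Inpp5k* (−1.31) and *Ywhae* (−0.64) were. *Sez6* was scarce, at no more than 0.028 CPM in KO and 1.99 to 2.86 in WT, so the size of its difference is uncertain. These neighbours are named as the calls next to *Myo18b*, *Myo18a* and *Myo1c*, after their values were seen. The 10 Mb of chromosome 11 that hold both myosins (70 to 80 Mb) had 164 tested genes with a median of −0.23, of which 67.1% had a log2 fold change below 0, and the 10 Mb around *Myo18b* (110 to 120 Mb of chromosome 5) had 110 with a median of 0.09, of which 40.9% did. Medians over 10 Mb were as low around members that were not called, at −0.23 for *Myo10* (10 genes) and −0.22 for *Myo9b*. They were −0.20 for *Myo6* and for *Myo9a*, and −0.03 for *Myo1e* and *Myo5a*, so a low region was not particular to *Myo18a* and *Myo1c*. Over all genes tested the median was 0.03, and 7758 of 14828 had a log2 fold change above 0. The part of these regions in the myosin values was not tested.

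The genes whose log2 CPM over the 6 libraries was most like that of *Myo18b* were *Zfp36l2*, *Irak1*, *Cyp1b1*, *Ccnyl1* and *Hsp90aa1*, with Pearson likeness of 0.9988 to 0.9964 among 8843 genes compared. All libraries fall into 2 genotypes, so that likeness ranks genes mainly by that split and is a description only. *Zfp36l2*, an mRNA-decay protein, was at 51.5, 61.1 and 65.6 CPM in KO and 19.4, 22.5 and 19.4 in WT. *Cyp1b1*, a cytochrome P450, was at 89.3, 122 and 128 in KO and 17.6, 17.2 and 15.6 in WT, and *Hsp90aa1*, a stress-inducible cytosolic chaperone, was at 574, 603 and 654 in KO and 300.2, 336 and 304 in WT. The log2 fold changes of *Zfp36l2*, *Cyp1b1* and *Hsp90aa1* were 1.54, 2.75 and 0.96, all below that of *Myo18b*. *Irak1*, a kinase of innate immune signalling, was at 78.6, 85.7 and 83.4 CPM in KO and 55.9, 59.3 and 58.2 in WT. *Ccnyl1*, a cyclin Y-like gene, was at 18.9 to 21.2 in KO and 7.55 to 8.59 in WT. KO1 was the lowest KO library for all 5, as for *Myo18b*, while the highest was KO3 for *Zfp36l2*, *Cyp1b1* and *Hsp90aa1* and KO2 for *Irak1* and *Ccnyl1*.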

How the data were processed

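RNA from 3 KO and 3 WT C2C12 libraries was sequenced as paired reads. The authors aligned the reads and deposited raw gene counts made with featureCounts, with no normalization, and StringTie TPM values per library. Submitters' notes name mm9, the methods name another build, and the gene starts in the TPM tables equal those of GENCODE vM21 for 87.2% of 45137 genes. Tool versions, annotation and use of strand are not given in the sources used here. The members and gene lists were chosen with earlier results of these data known.

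Counts were scaled (TMM), filtered (filterByExpr; 14828 of 46078 genes) and tested with edgeR 4.0.16 in R 4.3.3, two-sided, genotype only, with Benjamini-Hochberg adjustment over all genes tested and a threshold of 0.05. TPM values sharing a gene identifier were summed, kept at 1 or more in at least 3 libraries and tested with limma 3.58.1 on log2(TPM + 1). Unadjusted p-values under 0.05 numbered 5781 in counts. TMM factors were 0.949 to 1.08. Libraries of one genotype differed by far more than counting noise (chi-square per degree of freedom 50.1 to 189). P-values measure the spread between these libraries, which may be technical or between clones. Named genes were all 9 members, up to 6 calls with the smallest adjusted p and up to 3 others with the highest mean CPM per list, and the 5 genes most like *Myo18b*. Alternatives were DESeq2 1.42.0, RLE scaling, no filter, a replicate block, a pseudocount of 0.1 and each library left out; scaling by library totals was added after the data had been seen. The edgeR, DESeq2 and limma fits with their main settings were tried on simulated counts, scaled to library totals for limma. The other steps were not tested on simulated data. Protein features were not analysed here, and some listed genes are not reported here.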

Additional observations from a re-analysis of the deposited data

How the results depend on the processing

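*Myo18b* stayed higher in KO in every alternative that gave it a value, between 5.72 and 6.16 on the log2 scale in counts, and at 5.38 in TPM with a pseudocount of 0.1. Leaving out 1 library moved the genes past the threshold in counts between 933 (without WT1) and 4712 (without KO1), from 3361 with all libraries, with 2088 without KO3, 2100 without WT2 and 1288 without WT3, and those in TPM between 484 (without WT1) and 3156 (without KO1), from 2394, with 1593 without KO2, 1422 without KO3, 1329 without WT2 and 902 without WT3. Of the 9 genes, 1 to 3 passed in counts, *Myo18b* in every case, and 1 to 2 in TPM, where *Myo18b* missed the minimum of 3 libraries when a KO library was left out and so has no value. *Myo18a* in TPM fell short without WT1 or WT3, and *Myo1c* without any library but KO1. Without a filter on low TPM, 1075 genes and 1 of the 9 (*Myo18b*) passed. Small log2 differences changed sign with 1 library left out: *Myo6* ranged from −0.027 (without KO3) to 0.248, *Myo9a* from −0.147 to 0.029 (without KO2), *Myo10* from −0.011 (without KO1) to 0.220, *Myh10* from −0.332 to 0.014 (without WT2), *Myl12a* from −0.149 (without KO1; also below 0 without WT3) to 0.132, and *Calm3* from −0.150 (without KO2) to 0.298. With library totals *Myo9a* moved to 0.057. In TPM, *Myo6* ranged from −0.098 (without KO3) to 0.239 and *Myo9a* from −0.15 to 0.059 (above 0 without KO1, KO2 or WT2). The cause of these shifts was not tested. Same-numbered libraries showed no shared deviation (r of 0.14, −0.12 and 0.00 for numbers 1, 2 and 3). Differently numbered ones ranged from −0.34 to 0.28. With 3 libraries per genotype such values cannot exclude a pairing or a shared batch. With a replicate block 2520 genes and 2 of the 9 passed in counts. *Myo1c* (−0.69), *Myo7a* (edgeR adjusted p = 0.0813), *Gipc1* (0.0559) and *Enah* (0.0647) then fell short. Depth limits the scarce genes, such as *Myo7a* with at most 41 counts in a library.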
